A study of Caenorhabditis elegans with 6 samples.

Results

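The genes described here are those of the mitochondrial ribosomal proteins of the nematode *Caenorhabditis elegans*. They were taken by symbol alone, as every row of the deposited table whose gene name begins with mrpl- or mrps- and a number. This rule gave 66 of 46778 rows, 39 named for the large subunit and 27 for the small one. The family itself was chosen with earlier results of these data known. RNA was sequenced from worms treated with JM03 (3 libraries), a crotamiton derivative by the title of the series, and from control worms (3 libraries). The groups carry no other label, and the sources used here do not give strain, age, sex, dose, length of exposure or what the controls received. Nothing says that the replicates of a group were separate cultures, so the p-values cover no more than the spread of these libraries, part or all of which may be technical. Levels are in TPM, a share of transcripts that is scaled for transcript length, so genes can be compared with each other. Read depth cannot be recovered from TPM and is unknown.

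The mitochondrial ribosome makes the few proteins that the mitochondrial genome encodes, all of them parts of the respiratory chain and ATP synthase. Its RNAs come from mitochondrial DNA, but its proteins are encoded in the nucleus, made in the cytosol and imported. Part of these proteins have counterparts in bacterial ribosomes, and the rest are known from mammals as additions found in mitochondria alone. In *C. elegans*, knockdown of *mrps-5* is known for lengthening lifespan and for switching on the mitochondrial unfolded protein response. Roles given below for single proteins are known from bacterial or mammalian ribosomes.

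All 66 genes matched the annotation of WBcel235, and all lay on nuclear autosomes. Chromosome III held 21 of them (31.8%, against 13.2% of all annotated protein-coding genes), chromosome V held 9 (13.6%, against 25%) and the X chromosome held 0, against 13.7% of protein-coding genes. In 42 of the 66 (63.6%) another protein-coding gene lay within 500 nt on the same strand, which was so for 35.5% of all protein-coding genes. *mrps-2* (V:8465686 to 8467159) and *mrpl-4* (V:8467265 to 8468943) follow each other on the plus strand with 105 nt between them. No other member had a member as its close upstream neighbour. Another protein-coding gene overlapped 15 of the 66 (22.7%, against 21.6%) on the opposite strand, and without stranded counting the reads of such pairs cannot be told apart. The longest annotated transcript of a member ranged from 309 to 2164 nt, with a median of 755 nt, against 1154 nt for all protein-coding genes.

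1 control library, replicate 3, was unlike the rest. It had 16560 genes above 0 TPM, against 18049 to 18208 elsewhere. Ribosomal RNA took 4.37% of its TPM and 0.338% to 0.639% of the TPM of the other 5. Across the 66 members its levels had Spearman correlations of 0.726 to 0.763 with those of the other libraries, which among themselves reached 0.921 to 0.976. These are correlations across genes, which are not independent replicates. Log2 fold changes below are therefore given with and without control replicate 3.

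Every member was above 0 in every library, and all 66 passed the filter of at least 1 TPM in at least 3 libraries. Their summed level was 4548, 4707 and 4565 TPM in JM03, against 4551, 5130 and 4441 TPM in control. The JM03 sums lay inside the range of the controls, and they spread less, at 4607 ± 87.4 TPM in JM03 and 4707 ± 370 TPM in control (mean ± SD, n = 3 each). This was 0.455% to 0.471% of all TPM in JM03 and 0.445% to 0.514% in control. The median member had 62.9, 62.7 and 61.2 TPM in the JM03 libraries, against 62.2, 67.8 and 49.3 TPM in control. Between 77.4% and 84.7% of the 12912 tested genes were below that median in the 6 libraries.

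**Figure D1:**
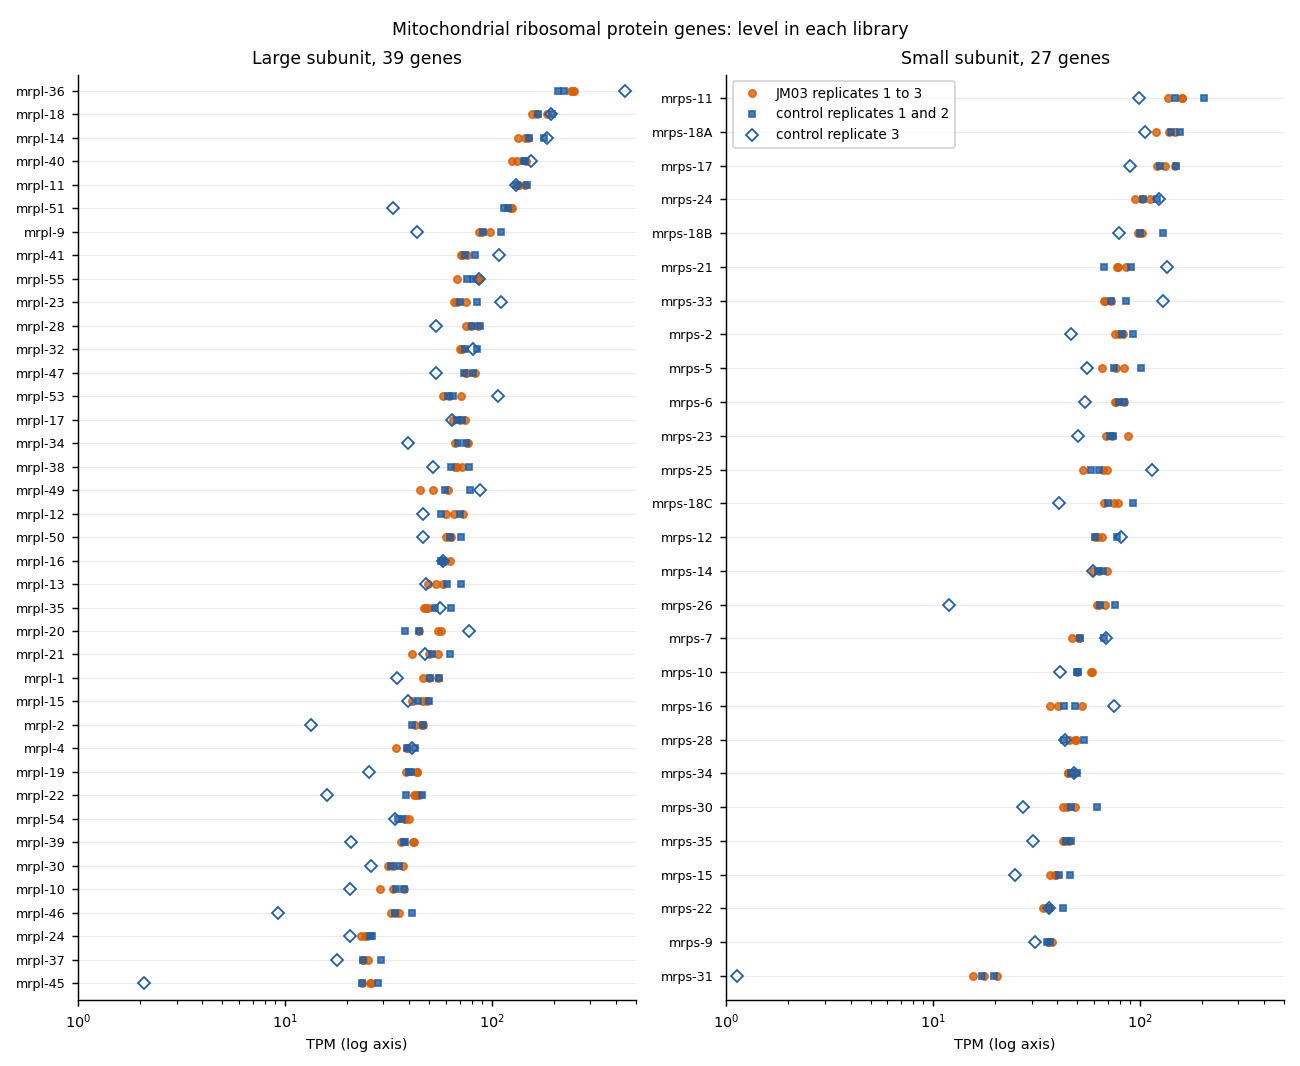
Level of each of the 66 genes in TPM on a log axis, in 39 rows for the large subunit (left) and 27 for the small subunit (right), ordered by mean level; each point is 1 library. JM03 points and those of control replicates 1 and 2 lie close together in nearly every row, while control replicate 3 lies far to the left for *mrpl-45* and *mrps-31* and to the right for *mrpl-36*.

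The members formed a graded series of levels in place of a single shared level. *mrpl-36*, a very small zinc-binding protein of the large subunit (III:9847626 to 9848116), was the most abundant, at 249, 242 and 247 TPM in JM03 and 210, 224 and 440 TPM in control. After it in mean level came *mrpl-18* (177 TPM over the 6 libraries), *mrpl-14* (158), *mrps-11* (151) and *mrpl-40* (142). The least abundant was *mrps-31* (III:3627234 to 3630372), at 15.6, 20.4 and 17.7 TPM in JM03 and 17.3, 19.8 and 1.13 TPM in control. Next to it were *mrpl-45* and *mrpl-37*, with means of 21.6 and 23.9 TPM. The order of the genes was close to the same in the JM03 libraries and in control replicates 1 and 2. Shorter transcripts tended to have the higher levels: across the 66 genes, the Spearman correlation between mean TPM in those 5 libraries and transcript length, which TPM itself divides by, was -0.403. On the log2(TPM + 1) scale the standard deviation among members was 0.714 to 0.733 in JM03, against 0.712, 0.742 and 1.26 in control replicates 1, 2 and 3. The 81 cytosolic ribosomal protein genes were more unequal among themselves, at 1.36 to 1.39 in JM03 and 1.35 to 1.57 in control.

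The large subunit took 1.47, 1.45 and 1.47 times the summed TPM of the small subunit in the JM03 libraries, against 1.46, 1.36 and 1.60 times in control. The JM03 ratios differed by little and lay inside the range of the controls, where replicates 2 and 3 were the extremes in opposite directions. The median small-subunit gene had 62.0 to 67.8 TPM in JM03 and 54.3 to 74.1 TPM in control, and the median large-subunit gene 57.9 to 60.4 TPM in JM03 and 47.7 to 65.1 TPM in control. Control replicate 2 was the highest of the 6 libraries for 33 of the 66 members, and for 28.1% of all tested genes. Sperm markers summed to 10100 TPM in this library, and to 6430 and 13500 TPM in control replicates 1 and 3. Each control was thus above every JM03 library, at 2260 to 4480 TPM. The part of sperm RNA in the position of control replicate 2 was not tested.

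**Figure D2:**
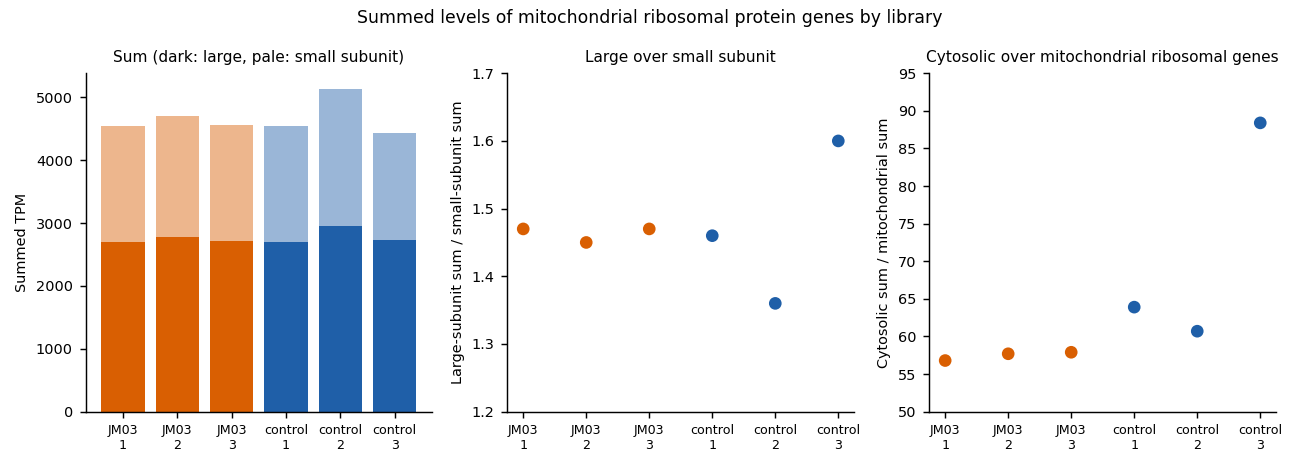
By library, the summed TPM of the members (bars from 0, dark for the large and pale for the small subunit), the ratio of the 2 sums, and the ratio of cytosolic to mitochondrial ribosomal protein sums; orange is JM03 and blue is control. The sums lie between 4441 and 5130 TPM, and the last ratio is 56.8 to 57.9 in JM03 and 60.7 to 88.4 in control.

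The comparison of JM03 with control asked whether treated animals differed in these genes. By limma with Benjamini-Hochberg adjustment no member passed the threshold of 0.05 (smallest adjusted p 0.49), and 0 had an unadjusted p below 0.05. Over all tested genes 0.132% were called (17 of 12912), and 11.7% had an unadjusted p below 0.05. Of the members 42 had a positive log2 fold change and 24 a negative one, with a median of 0.05 and a range of -0.49 to 1.01. All tested genes had a median of 0.35, and 72.7% of them were positive. All log2 fold changes are of TPM + 1, which understates changes of low genes.

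Without control replicate 3 again no member was called (limma, smallest adjusted p 0.237), where 0.132% of all tested genes were. Of the members 2 had an unadjusted p below 0.05 (3.03%), against 19.5% of all tested genes. The median log2 fold change was then -0.07, against 0.05 over all genes, and 20 members were positive and 46 negative. The balance of signs thus turned when 1 library was left out. It also turned with other scalings. Quantile normalization and median-of-ratios scaling, which brought the median of all genes to 0.09 and 0.05, left 7 of the 66 positive. Rescaling without cytosolic ribosomal genes and ribosomal RNA, with a median of all genes of 0.24, left 16 positive. Relative to the median of all tested genes the members' median was -0.30, -0.12 without control replicate 3 and -0.18 with a correction for transcript length.

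Without control replicate 3 the limma intervals were narrower. Leaving out a library because it differs from the rest in these genes lowers their spread by itself. The narrower intervals also rest on control replicates 1 and 2 alone, so they are no firmer limit on the effect of JM03. The ratio of the JM03 mean to the mean of control replicates 1 and 2 ran from 0.770 to 1.26 over the 66 genes, with a median of 0.952. The limma 95% interval of the log2 fold change lay within 0.5 of 0 in 56 of the 66 members (84.8%) and in 34.1% of all tested genes. It lay within 1 of 0 in all 66, against 70.2% of all tested genes. Among the lists given below, it lay within 0.5 in 85.2% of cytosolic ribosomal, 82.9% of nuclear respiratory chain and 88.2% of mitochondrial import genes. In the other mitochondrial lists this share ran from 33.3% to 100%. With the 6 libraries the intervals were wider: 0 members lay within 0.5, and 50 of 66 (75.8%) within 1, against 23.8% of all tested genes. The median coefficient of variation of a member was 6.37% among JM03 libraries and 21% among controls, or 8.53% in control replicates 1 and 2. For all tested genes these values were 11.3%, 46.1% and 14%. Most tested genes were lower in level than the median member, and genes of like level were not compared.

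**Figure D3:**
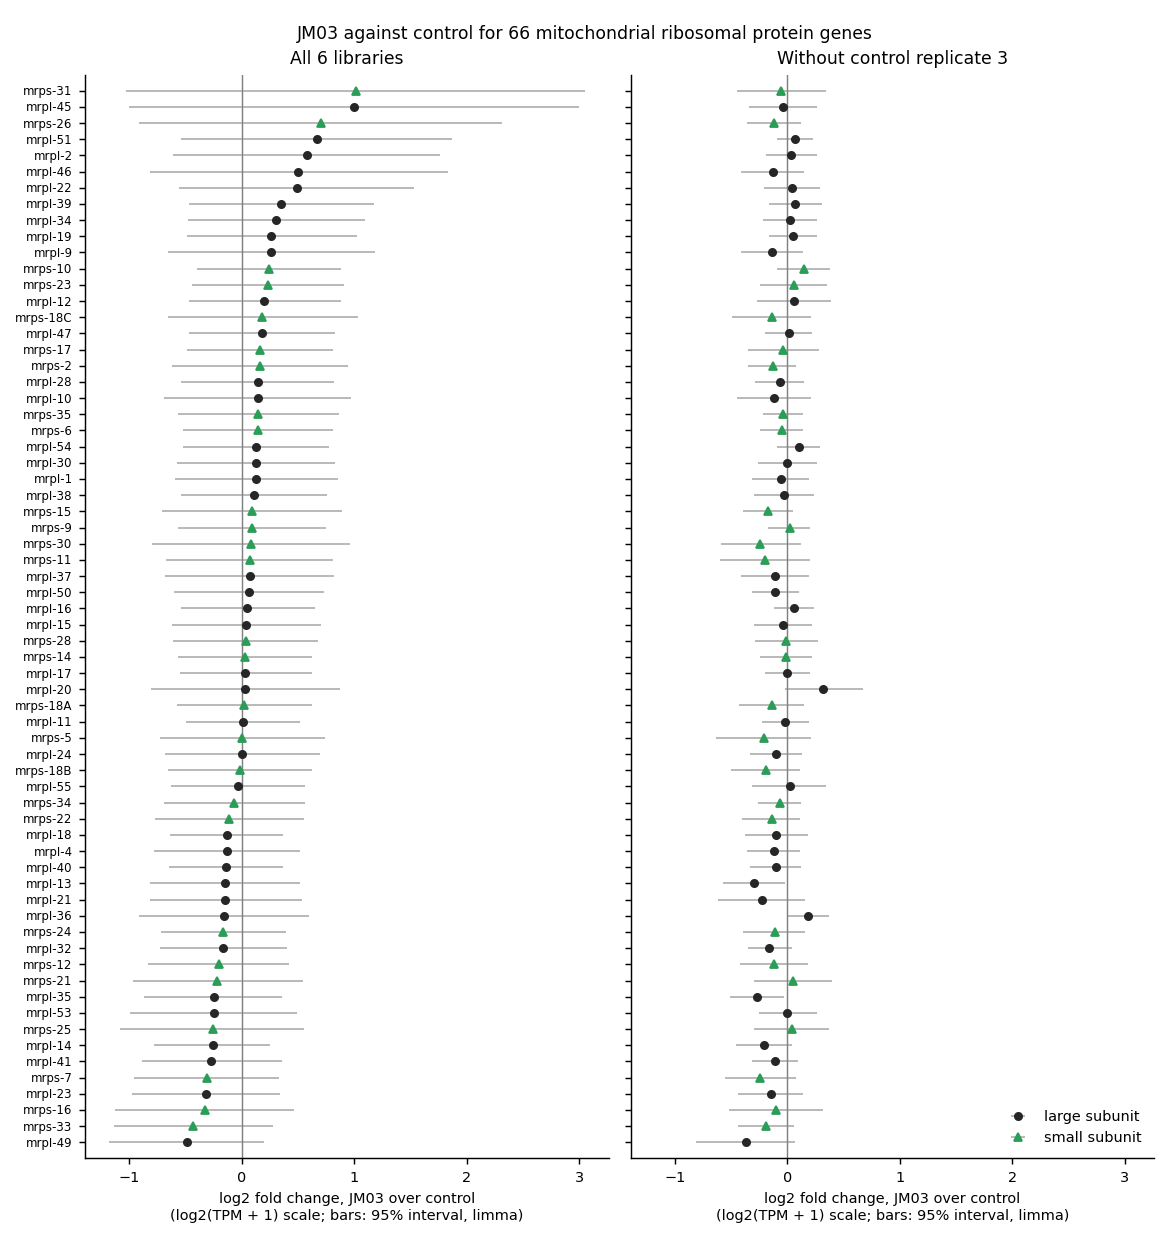
Log2 fold change of JM03 over control on the log2(TPM + 1) scale for the 66 genes, with limma 95% intervals, for the 6 libraries (left) and without control replicate 3 (right), in 1 order of genes set by the left panel. The spread from -0.49 to 1.01 on the left narrows to -0.37 to 0.32 on the right.

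Large-subunit genes with bacterial counterparts include those of the stalks. *mrpl-1*, of the stalk where spent transfer RNA leaves, had 46.8, 55.3 and 50.04 TPM in JM03 and 50.3, 55.6 and 34.9 TPM in control. The groups overlapped, and its log2 fold change was 0.13 ± 0.305 (SE; limma adjusted p = 0.777), and -0.06 without control replicate 3. *mrpl-10*, the anchor of the stalk that recruits translation factors, had 37.7, 33.4 and 28.9 TPM in JM03 and 34.5, 37.7 and 20.6 TPM in control. *mrpl-12*, which forms that stalk, had 65.9, 60.3 and 72.6 TPM in JM03 and 70.7, 56.7 and 46.7 TPM in control. The level of *mrpl-12* was thus above that of its anchor *mrpl-10* in every library, and neither differed between groups beyond the spread (log2 fold changes 0.20 ± 0.285 and 0.14 ± 0.349, SE; limma adjusted p = 0.645 and 0.792). Without control replicate 3 these values were 0.06 for *mrpl-12* and -0.12 for *mrpl-10*.

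*mrpl-2*, a core protein at the peptidyl transferase centre, had 42.4, 46.5 and 45.96 TPM in JM03 and 41.4, 46.6 and 13.4 TPM in control. The low library was control replicate 3, and the log2 fold change of 0.58 ± 0.499 (SE; limma adjusted p = 0.51) was 0.03 ± 0.0889 without that library. *mrpl-14*, a symbol of the deposited table for a gene that the current name table lists as F45E12.5, is given without a role. It had 146, 149 and 134 TPM in JM03 and 152, 179 and 186 TPM in control. All JM03 values lay below all controls, but the difference of -0.26 ± 0.218 (SE) was not called (limma adjusted p = 0.503) and was -0.21 without control replicate 3. *mrpl-18*, of the central protuberance, overlapped between groups at 157 to 185 TPM in JM03 and 168 to 195 TPM in control (log2 fold change -0.13, adjusted p = 0.684 by limma; -0.10 without control replicate 3). *mrpl-23*, near the exit of the peptide tunnel, had 75.5, 65.4 and 68.0 TPM in JM03 and 70, 85.3 and 111 TPM in control (log2 fold change -0.32 ± 0.279 SE, adjusted p = 0.511 by limma). Without control replicate 3, the highest library for it, the value of *mrpl-23* was -0.15. *mrpl-36*, the most abundant member, had a log2 fold change of -0.16 ± 0.319 with the 6 libraries and of 0.18 ± 0.0725 without control replicate 3 (SE), and was called in neither fit (limma adjusted p = 0.747 and 0.256).

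Among the large-subunit genes without a bacterial counterpart, *mrpl-45*, which in mammals ties the ribosome to the inner membrane, had 23.5, 26.3 and 25.8 TPM in JM03 and 23.7, 28.2 and 2.08 TPM in control. Its log2 fold change of 1.00 ± 0.842 (SE; limma adjusted p = 0.505) was -0.04 ± 0.119 without control replicate 3. *mrpl-51* had 125, 122 and 124 TPM in JM03 and 121, 115 and 33.3 TPM in control. It was above all controls in every JM03 library, by a log2 fold change of 0.67 ± 0.507 (SE), which was not called (limma adjusted p = 0.494) and was 0.07 without control replicate 3. *mrpl-46*, of the central protuberance in mammals, had 32.5, 34.2 and 35.8 TPM in JM03 and 34.03, 41.2 and 9.30 TPM in control (log2 fold change 0.50, adjusted p = 0.575 by limma; -0.13 without control replicate 3). For *mrpl-45*, *mrpl-51* and *mrpl-46* alike, control replicate 3 was the 1 low library and the other 5 lay close together.

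The lowest log2 fold change of the 66 was that of *mrpl-49*, at 52.1, 61.7 and 45.3 TPM in JM03 and 59.4, 78.2 and 88.2 TPM in control. Its groups overlapped, at -0.49 ± 0.293 with the 6 libraries (SE; limma adjusted p = 0.49) and -0.37 ± 0.175 without control replicate 3 (limma adjusted p = 0.30). *mrpl-41* had 76.2, 71.7 and 71.0 TPM in JM03 and 74.7, 83.1 and 109 TPM in control, and *mrpl-40* had 126 to 147 TPM in JM03 and 144 to 156 TPM in control. *mrpl-37* had 23.8, 25.3 and 23.9 TPM in JM03 and 23.8, 29.1 and 17.8 TPM in control. The log2 fold changes of *mrpl-41*, *mrpl-40* and *mrpl-37* were -0.27, -0.14 and 0.07 (limma adjusted p = 0.543, 0.68 and 0.889), and -0.11, -0.10 and -0.11 without control replicate 3.

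In the small subunit, *mrps-5* (V:12563487 to 12565801), the gene known for its link with lifespan in the worm, had 77.1, 83.9 and 65.5 TPM in JM03 and 74.9, 101 and 55.8 TPM in control. The controls spread to both sides of the JM03 libraries, and the means were 75.5 ± 9.32 TPM in JM03 and 77.3 ± 22.8 TPM in control (SD, n = 3 each). The log2 fold change of *mrps-5* was 0.00, with a limma 95% interval of -0.73 to 0.74 (adjusted p = 1.00). Without control replicate 3 it was -0.21, with an interval of -0.63 to 0.21 (limma adjusted p = 0.471). *mrps-12*, a protein of the decoding centre, had 63.0, 65.5 and 60.5 TPM in JM03 and 60.7, 77.6 and 81.4 TPM in control (log2 fold change -0.20 ± 0.263 SE, adjusted p = 0.62 by limma; -0.12 without control replicate 3).

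*mrps-7*, which organises the head of the small subunit, had 47.23, 51.03 and 51.01 TPM in JM03 and 51.7, 66.9 and 69.0 TPM in control. Its JM03 libraries all lay below the controls, narrowly so for control replicate 1, and it was not called (log2 fold change -0.31 ± 0.273 SE, limma adjusted p = 0.511; -0.24 without control replicate 3). *mrps-11*, a platform protein and the most abundant member of the small subunit, had 161, 159 and 136 TPM in JM03 and 149, 204 and 99.3 TPM in control, on both sides of the JM03 values (log2 fold change 0.07, limma adjusted p = 0.888; -0.20 without control replicate 3). *mrps-16*, with a bacterial counterpart in the body of the subunit, had 52.3, 40.4 and 36.7 TPM in JM03 and 48.6, 43.1 and 74.95 TPM in control. It had the largest coefficient of variation among JM03 libraries of the 66, at 19%, and a log2 fold change of -0.33 ± 0.336 (SE; limma adjusted p = 0.545), which was -0.10 without control replicate 3.

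Of the small-subunit genes with no bacterial counterpart, *mrps-31* and *mrps-26* had the first and the third highest log2 fold change of all members. *mrps-31* had 1.01 ± 0.859 (SE; limma adjusted p = 0.507) and -0.06 without control replicate 3. *mrps-26* had 63.7, 67.8 and 62.0 TPM in JM03 and 64.6, 76.1 and 11.9 TPM in control, which gave 0.70 ± 0.678 (SE; limma adjusted p = 0.536) and -0.12 without control replicate 3. *mrps-33* lay on the other side, at 67.8, 72.7 and 67.0 TPM in JM03 and 72.4, 86.3 and 130 TPM in control. JM03 replicate 2 overlapped control replicate 1, and the log2 fold change of *mrps-33*, -0.43 ± 0.30 (SE; limma adjusted p = 0.49), was -0.19 without control replicate 3.

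Grouped by their counterparts, the 41 genes of bacterial type had a median mean level of 63.0 TPM in JM03 and 61.1 TPM in control, and the 22 known from mitochondria alone 57.6 TPM in JM03 and 55.6 TPM in control. Their median log2 fold changes were 0.04 and 0.07, and -0.06 for each without control replicate 3. Positive values were held by 27 of the bacterial-type genes over 6 libraries and by 13 once control replicate 3 was left out, and by 13 and 7 of the others. The remaining 3 genes, *mrps-18A*, *mrps-18B* and *mrps-18C*, had a median log2 fold change of 0.02, and of -0.14 without control replicate 3. Class and subunit were taken from the deposited symbol throughout, also for *mrpl-14*, and no symbol was checked against a ribosome structure. Sums, ratios and counts by subunit therefore hold for the symbols, and single members may belong to the other subunit. The deposited table describes *mrps-18C* as a putative large-subunit protein, so its place among the small-subunit genes is uncertain. It had 74.95, 78.2 and 67.3 TPM in JM03 and 70.3, 92.97 and 40.9 TPM in control. The median log2 fold change of the 39 large-subunit genes was 0.05 and that of the 27 small-subunit genes 0.04. Without control replicate 3 these were -0.04 and -0.11, with 15 of 39 and 5 of 27 genes positive.

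The JM03 and control libraries did not overlap for 7 of the 66 members. *mrpl-51* and *mrpl-54* were above every control in all JM03 libraries (3.03% of members), as were 21.9% of all tested genes. *mrpl-4*, *mrpl-14*, *mrpl-32*, *mrpl-35* and *mrps-7* were below every control (7.58%), as were 9.41% of all tested genes. The choice of *mrpl-4*, *mrpl-32*, *mrpl-35* and *mrpl-54* for description was made after seeing their values. *mrpl-32* had 71.2, 72.0 and 70.6 TPM in JM03, the smallest coefficient of variation of the 66 at 0.959%, against 74.6, 84.6 and 81.1 TPM in control (log2 fold change -0.17 ± 0.24 SE, adjusted p = 0.658 by limma; -0.16 without control replicate 3). *mrpl-35* had 47.2, 47.9 and 49.2 TPM in JM03 and 53.2, 63.7 and 56.4 TPM in control. It had the smallest adjusted p of the members without control replicate 3 (log2 fold change -0.27 ± 0.0957 SE, limma adjusted p = 0.237), and -0.25 with the 6 libraries (limma adjusted p = 0.551). *mrpl-54* had 38.01, 38.04 and 40.1 TPM in JM03 and 35.1, 37.1 and 34.1 TPM in control, and *mrpl-4* had 39.2, 38.9 and 34.6 TPM in JM03 and 39.2, 42.7 and 41.3 TPM in control. The highest JM03 and the lowest control value of *mrpl-4* were equal to 3 digits. Without control replicate 3, 4 members were above (6.06%, against 23.7% of all tested genes) and 8 below (12.1%, against 18.5%).

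Within the members, the position of control replicate 3 followed transcript length. It was the lowest of the 6 libraries for 40 members (60.6%), the highest for 16 (24.2%) and between the others for 10. Of the 12895 tested genes with a known transcript length it was the lowest for 64.8% and the highest for 11.8%, so its low place was not particular to the members. It was the highest for 4 of the 6 genes with transcripts of 309 to 486 nt and for 11 of the 22 of 506 to 688 nt. It was the lowest for 11 of the 12 genes of 925 to 1200 nt and for 12 of the 13 of 1277 to 2164 nt. Its TPM over the median of the other 5 libraries had a median of 1.40 in the shortest of these classes, 1.15 in the next and 0.692 in the longest. The lowest ratios were 0.0639 in *mrps-31* (2164 nt) and 0.0806 in *mrpl-45* (2140 nt), which have the longest transcripts of the 66, and the highest was 1.82 in *mrpl-36* (309 nt), which has the shortest. Across the 66 genes the Spearman correlation of its deviation with length was -0.645, against -0.038 to 0.263 in the other 5 libraries and -0.536 for control replicate 3 over all tested genes. For control replicate 3 it was -0.753 across the nuclear respiratory chain genes and -0.267 across the cytosolic ribosomal protein genes. Between log2 fold change and length the correlation across the 66 members was 0.521 over the 6 libraries and -0.193 without control replicate 3. These too are correlations across genes of the same libraries, and what made this library differ was not tested. With a correction of each library for transcript length, the members' median log2 fold change was -0.15, with 19 of 66 positive and 0 called.

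**Figure D4:**
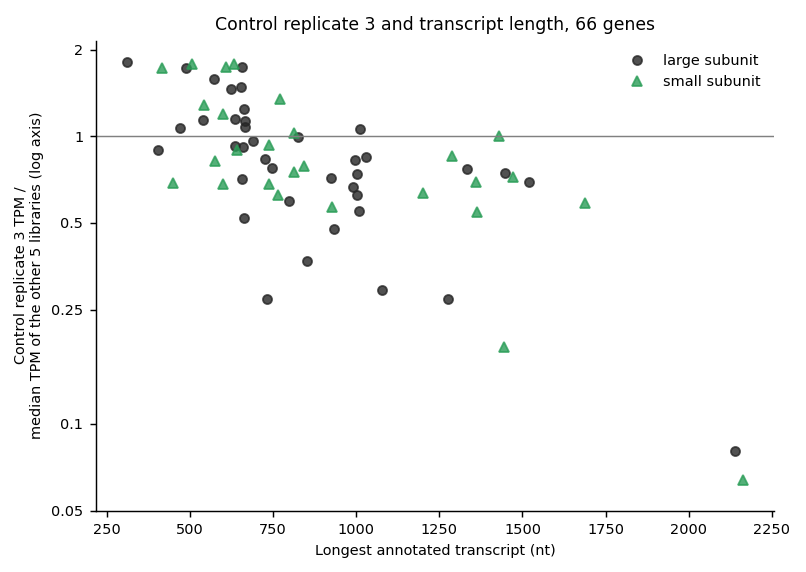
TPM of control replicate 3 over the median TPM of the other 5 libraries (log axis) against the length of the longest annotated transcript, 1 point for each of the 66 genes. The ratio is 1.82 for the shortest transcript, *mrpl-36* at 309 nt, and under 0.1 for the longest, *mrps-31* and *mrpl-45*.

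Other genes of mitochondrial gene expression were read from lists beside the members. The mitochondrial aminoacyl-tRNA synthetases, which charge the transfer RNAs, had 13 tested genes, 9 with a positive log2 fold change and 0 called, with a median of 0.18 and of -0.10 without control replicate 3. The synthetase gene *cars-2* had the smallest p, at 7.07, 11.3 and 7.05 TPM in JM03 and 10.4, 14.8 and 11.9 TPM in control (log2 fold change -0.51, adjusted p = 0.49 by limma; -0.53 without control replicate 3). The 4 mitochondrial elongation factor genes, among them *tufm-1* for the factor that delivers charged transfer RNA, had a median of 0.47 and of 0.00 without control replicate 3. *tufm-1* itself had 132, 145 and 140 TPM in JM03 and 131, 138 and 55.7 TPM in control. The 4 tested genes for copying and transcribing mitochondrial DNA, *mtss-1* among them, had medians of 0.35 and -0.09, and 0 were called. *mtss-1*, for a protein that binds single-stranded mitochondrial DNA, had 150, 141 and 157 TPM in JM03 and 140, 141 and 62.7 TPM in control. For *tufm-1* and *mtss-1*, as for most members, the groups differed in control replicate 3 and by little elsewhere.

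The 12 genes of mitochondrial DNA that this ribosome translates had a median log2 fold change of 0.31, 11 of them positive, and of 0.06 without control replicate 3, 8 positive. *ctb-1*, for cytochrome b, had 398, 354 and 376 TPM in JM03 and 316, 327 and 72.9 TPM in control, with all JM03 values above all controls and no call (log2 fold change 0.93 ± 0.572 SE, limma adjusted p = 0.49; 0.22 without control replicate 3). The 41 nuclear genes of the respiratory chain had a median of 0.05, equal to that of the members to 2 decimals, with 29 positive, and of 0.01 without control replicate 3. *asb-2*, for a subunit of ATP synthase, had the smallest p among them (log2 fold change 0.63, limma adjusted p = 0.473; 0.47 without control replicate 3). The 17 genes of mitochondrial protein import and processing had medians of 0.16 and -0.05. *tin-10*, of the carriers between the membranes, had the smallest p there, at 130, 108 and 106 TPM in JM03 and 125, 160 and 304 TPM in control (log2 fold change -0.67, adjusted p = 0.48 by limma; -0.30 without control replicate 3). The 11 genes of the mitochondrial unfolded protein response had medians of 0.54 and 0.15, with 9 positive, and 7 without control replicate 3. The protease gene *clpp-1*, against the direction of most of the list, had the smallest p (log2 fold change -0.62, limma adjusted p = 0.478, and -0.33 without control replicate 3). In each of these lists 0 genes were called, with or without control replicate 3.

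The cytosolic ribosomal proteins build the ribosomes that make all nuclear-encoded proteins, the members included. Their median log2 fold change was -0.27, positive in 10 of 81 tested genes, and -0.18 without control replicate 3, positive in 1 of 81. None was called, and *rpl-39* had the smallest p (log2 fold change -0.42 ± 0.104 SE, limma adjusted p = 0.306; -0.37 without control replicate 3). Their summed TPM was 56.8, 57.7 and 57.9 times that of the mitochondrial ribosomal protein genes in the JM03 libraries, against 63.9, 60.7 and 88.4 times in control. The JM03 ratios lay below every control ratio, while the members' own sums overlapped. The cytosolic sums were 25.9% to 27.2% of all TPM in JM03 and 29.1% to 39.3% in control. Whether the lists differ was not tested.

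**Figure D5:**
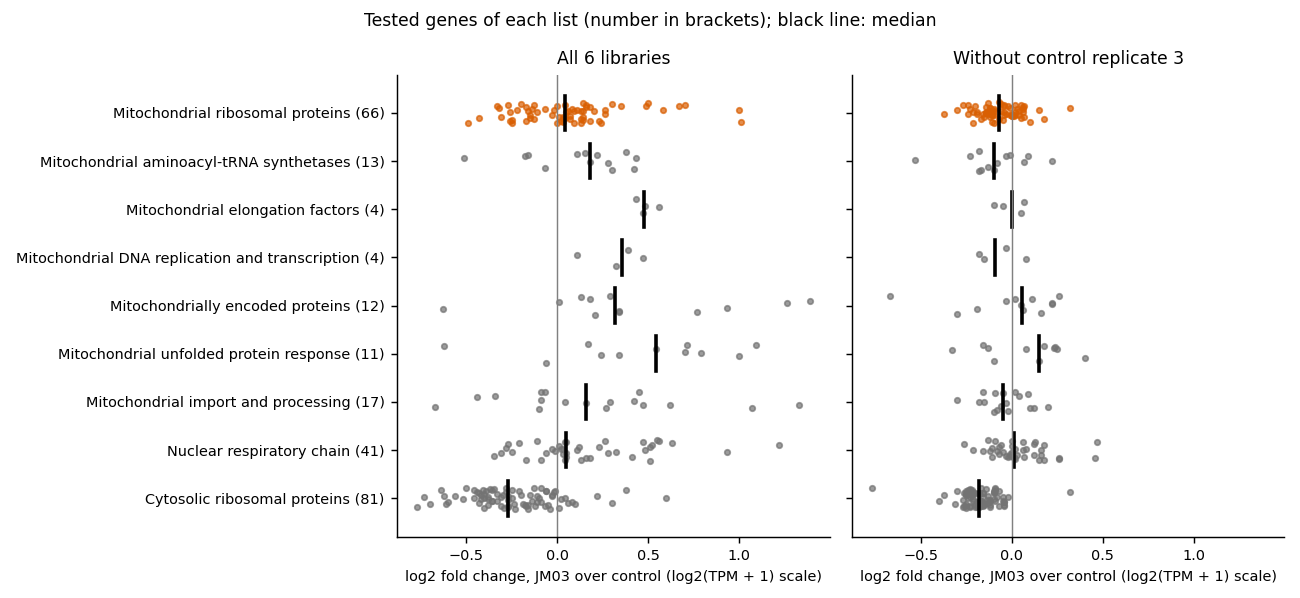
Log2 fold change of JM03 over control on the log2(TPM + 1) scale for each tested gene of the members (orange) and of the other lists (grey), with the list median as a black line, for the 6 libraries (left) and without control replicate 3 (right). The members' median is 0.05 on the left and -0.07 on the right, and that of the cytosolic ribosomal proteins -0.27 and -0.18.

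The libraries had no tissue label, and the levels of some cell type markers also moved with the groups. Of 46 sperm markers 40 were tested and 40 had a negative log2 fold change, with sums of 2260 to 4480 TPM in JM03 and 6430 to 13500 TPM in control. Oocyte markers summed to 8570 to 10300 TPM in JM03 and 3670 to 8300 TPM in control, with 12 of 12 positive. Germ line markers summed to 1840 to 1910 TPM in JM03 and to 1840, 1910 and 546 TPM in control replicates 1, 2 and 3, with 10 of 12 positive and 6 of 12 without control replicate 3. Body wall muscle markers summed to 1030 to 1940 TPM in JM03 and 632 to 1210 TPM in control (14 of 14 positive), intestine markers to 8790 to 11700 and 4340 to 10300 TPM (11 of 12) and neuron markers to 442 to 458 and 241 to 422 TPM (10 of 11). Of 9 epidermis markers 5 were tested, all positive. Of all tested genes 72.7% were positive over the 6 libraries, and 56.5% without control replicate 3. Without that library, positive markers were 0 of 40 for sperm, 12 of 12 for oocytes and 14 of 14 for body wall muscle. They were 12 of 12 for intestine, 8 of 11 for neurons and 4 of 5 for epidermis. The sperm markers *msp-37* and *msp-58* were listed at 0 in all 6 libraries, and *msp-74* in the JM03 libraries. In bulk RNA, fewer cells of a type and less RNA per cell cannot be told apart, and the part of these shifts in the members' values was not tested.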

How the data were processed

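The authors deposited 1 table of TPM values to 2 decimals. The unit was taken from the values, whose columns sum to 997816 to 998884. Per the submitters' processing notes, fastp, HISAT and RSEM were used with the build WBcel235; the sources used here give no version, setting or strand. Columns were matched to samples by title. Coordinates and transcript lengths came from Ensembl release 115 for WBcel235, which 46603 of 46778 rows matched.

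A gene was tested if 3 or more libraries had 1 TPM or more. Values were compared as log2(TPM + 1) by limma 3.58.1 (trend, robust prior) in R 4.3.3, unpaired, with Benjamini-Hochberg adjustment over all 12912 genes and calls at 0.05. This step was also run on simulated data with known log2 changes of 1 or more. That run did not measure its power for smaller changes. Lists were counted, not tested. Of 15 synthetases listed, 13 were found in the table. Roles follow the mammalian counterparts.

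Named members were the 5 highest and 3 lowest by mean, the 6 with the highest and the 6 with the lowest log2 fold change, the 6 of smallest p, and 7 fixed genes. In each other list, called genes or else that of smallest p were named. Members, lists and rules were chosen with earlier results of these data known.

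Alternatives were each library left out, a replicate block, a pseudocount of 0.1, no filter, a filter at 5 TPM, 3 scalings, a length correction (lowess, span 0.3) and a prior without the robust option. Python 3.11.15 and matplotlib 3.10.9 made the figures.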

Additional observations from a re-analysis of the deposited data

How the results depend on the processing

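No member was called under any of the 15 alternatives. A replicate block left 0 genes called, against 17 without it; 12.4% of genes then had an unadjusted limma p below 0.05, and no member's call changed. Same-numbered libraries had correlations of -0.0203, 0.0795 and -0.146 in their deviations from the group means, so the numbers were not taken as a pairing. Leaving out 1 library gave 5 to 17 called genes: 5, 6 and 10 without JM03 replicates 1, 2 and 3, and 13, 8 and 17 without control replicates 1, 2 and 3. A pseudocount of 0.1 gave 7 higher and 6 lower calls, against 12 and 5.

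The members' median relative to all tested genes, -0.30, was -0.09 with no filter on low values, where 20614 genes were tested, -0.18 with the correction for transcript length (median 755 nt in members, 1267 nt in all tested genes), and -0.44 to -0.12 with 1 library left out. The large-subunit minus small-subunit median, 0.02, was 0.10 with the length correction and -0.06 to 0.07 with 1 library left out.

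Signs of log2 fold changes near 0 turned with the scaling; the median of all genes was 0.35, but 0.09 after quantile normalization, 0.05 after median-of-ratios scaling, 0.24 after rescaling without cytosolic ribosomal genes and ribosomal RNA and 0.04 with the length correction. Quantile normalization gave *mrps-11* -0.17, *mrpl-37* -0.29, *mrps-5* -0.29, *mrpl-1* -0.20, *mrpl-10* -0.23 and *mrpl-12* -0.09. Median-of-ratios scaling gave *mrps-11* -0.30, *mrpl-37* -0.29, *mrps-5* -0.37, *mrpl-1* -0.23, *mrpl-10* -0.22 and *mrpl-12* -0.16. That rescaling gave *mrps-11* -0.10, *mrpl-37* -0.10, *mrps-5* -0.17, *mrpl-1* -0.04 and *mrpl-10* -0.03. The length correction gave *mrps-11* -0.05, *mrpl-37* -0.30, *mrps-5* -0.38 and *mrpl-1* -0.26. With 1 library left out, the value ran from -0.21 to 0.21 for *mrps-5*, -0.35 to 0.18 for *mrpl-36*, -0.20 to 0.32 for *mrps-11*, -0.06 to 1.59 for *mrps-31*, -0.04 to 1.59 for *mrpl-45*, -0.11 to 0.23 for *mrpl-37*, -0.12 to 1.17 for *mrps-26*, -0.13 to 0.89 for *mrpl-46*, -0.06 to 0.27 for *mrpl-1* and -0.12 to 0.30 for *mrpl-10*. The cause of these changes was not tested. TPM keeps no depth, so counting error could not be set beside any value, and 3 libraries a group limit the precision.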

Other observations

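Mitochondrial ribosomal proteins that the deposited table lists under other names stood outside the choice by symbol, and their levels are given as values. *dap-3*, for a GTP-binding protein of the small subunit in mammals, had 48.5, 45.7 and 47.3 TPM in JM03 and 50.5, 56.5 and 22.4 TPM in control. Control replicate 3 was its low library. The current name table gives the symbols mrps-27 to K11B4.1 and mrpl-48 to CD4.3. K11B4.1 had 45.2, 46.5 and 43.2 TPM in JM03 and 45.9, 56.5 and 37.9 TPM in control, and CD4.3 had 82.6, 82.1 and 76.4 TPM in JM03 and 74.4, 75.2 and 87.3 TPM in control. The same table gives mrpl-44 to F02A9.4, which the deposited table describes otherwise and which had 93.9, 90.6 and 93.5 TPM in JM03 and 96.6, 106.5 and 33.5 TPM in control. It gives mrps-18.C to T14B4.2, at 76.5, 79.7 and 67.9 TPM in JM03 and 72.3, 76.1 and 120 TPM in control. Over the 6 libraries the groups overlapped for each of these 5 genes. Without control replicate 3, the JM03 values of CD4.3 lay above the controls, and those of *dap-3* and F02A9.4 below them. K11B4.1 and T14B4.2 still overlapped. Of all tested genes, 23.7% lay above and 18.5% below in that setting.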
